A study of Mus musculus with 6 samples.

Results

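The genes described here are 10 vitamin receptors and transporters of the mouse, followed from embryonic to adult choroid plexus (ChP), the epithelium that makes cerebrospinal fluid (CSF). They were chosen by gene symbol, and all 10 were found among the 24354 gene rows of the table. Translating ribosome affinity purification (TRAP) was used, in which tagged ribosomes are pulled down and the mRNA bound to them is sequenced. The ribosomes were tagged through L10a, a protein of the large subunit, joined to EGFP. All samples of both ages carried the same genotype, FoxJ1:cre x bacTRAP (EGFP:L10a), so the tag marks cells in which the Foxj1 promoter had driven Cre, then or at an earlier stage. There were 3 adult samples, labelled P60 and 60 days, and 3 samples labelled E16.5. No other treatment is given. The study's methods describe each sample as ChP of the lateral ventricle pooled from 3 mice or 3 litters, whereas the series text gives 3 mice per age, so the number of animals behind a replicate is not settled. P-values therefore measure the spread between these samples. Values are FPKM, in which the fragments of a gene are divided by its transcript length and by the size of the library, so that levels are per length and can be compared between genes.

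Most vitamins are not made in the brain and reach it in part through the ChP. Its epithelium takes folate from the blood with folate receptor alpha (Folr1) and the proton-coupled folate transporter (Slc46a1) and passes it on to the CSF. Ascorbate is taken up by the sodium-dependent vitamin C transporter SVCT2 (Slc23a2). Thiamine, riboflavin, biotin, pantothenate and cobalamin each have carriers of their own, and cobalamin enters cells bound to transcobalamin.

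The libraries of the ages differed in depth and make-up. The adult libraries were the shallower ones, with an estimated depth of 1 to 2.90 times that of the shallowest library against 4.10 to 5.17 times at E16.5. A single row, Mir6236, took 32.7 to 51.7% of the summed FPKM in the adult samples and 13.3 to 15.0% at E16.5. The median log2 change of the 11601 genes tested was -0.86, so that most genes were lower in adult on this scale, and changes are also given relative to that median. Of 11 markers of ChP epithelium, Folr1 among them, all were above 0 in every adult sample and all but 1 in every E16.5 sample. Of these, 4 were called higher in adult (Ttr, Kl, Kcnj13 and Prlr) and 3 higher at E16.5 (Otx2, Foxj1 and Krt18). The shares of all genes tested were 2.12% and 8.83%. The hormone receptor gene Prlr was at 437 to 527 FPKM in adult against 0.541 to 2.38 FPKM at E16.5, and Otx2, a transcription factor of this epithelium, at 150 to 184 FPKM in adult against 340 to 426 FPKM at E16.5. Transthyretin (Ttr), the most abundant of these markers, lay at 20922 to 31302 FPKM in adult but is listed at 0 in all 3 E16.5 samples. A listed 0 is therefore not read as absence, and the call on Ttr rests on such values.

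**Figure D1:**
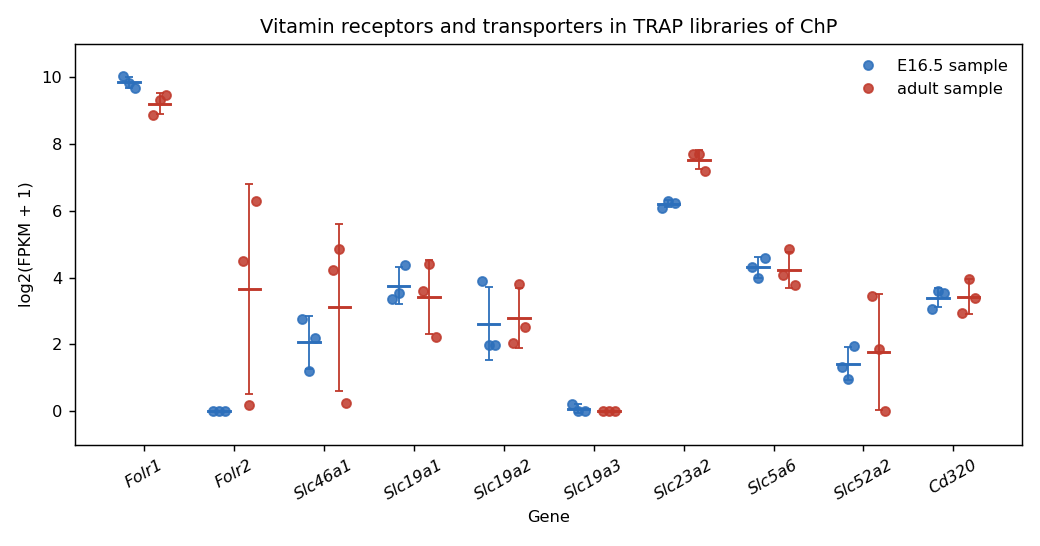
The plot shows log2(FPKM + 1) of each of the 10 genes, with 1 point per sample (3 adult in red, 3 E16.5 in blue), the mean as a horizontal line and the SD as the error bar. Folr1 and Slc23a2 stand above the other 8 genes in every sample, and of these 2 only Slc23a2 is higher in adult.

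Of the 10 genes, the vitamin C transporter Slc23a2 was the only one whose change between the ages passed the test, and it rose in adult to 2.55 times its E16.5 level. Thus 1 of 9 genes tested was called in the adult direction and 0 in the E16.5 direction, where the shares among all genes tested were 2.12% for adult and 8.83% for E16.5 (limma, Benjamini-Hochberg adjusted p under 0.05 over all 11601 genes). At an unadjusted p under 0.05, 2 genes passed upward, Slc23a2 and Folr2, and 1 downward, Folr1, where the shares of all genes tested were 5.34% upward and 25.9% downward, 31.3% in all. The median change of the 9 genes was 0.16, and it was 0.09 over the 8 genes above 0 in at least 1 sample of each age. All genes tested had a median of -0.86. Of the 9 genes, 6 changed upward and 3 downward in sign, and without Folr2 5 upward and 3 downward. Slc19a3 was not tested because its mean lay under 1 FPKM.

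**Figure D2:**
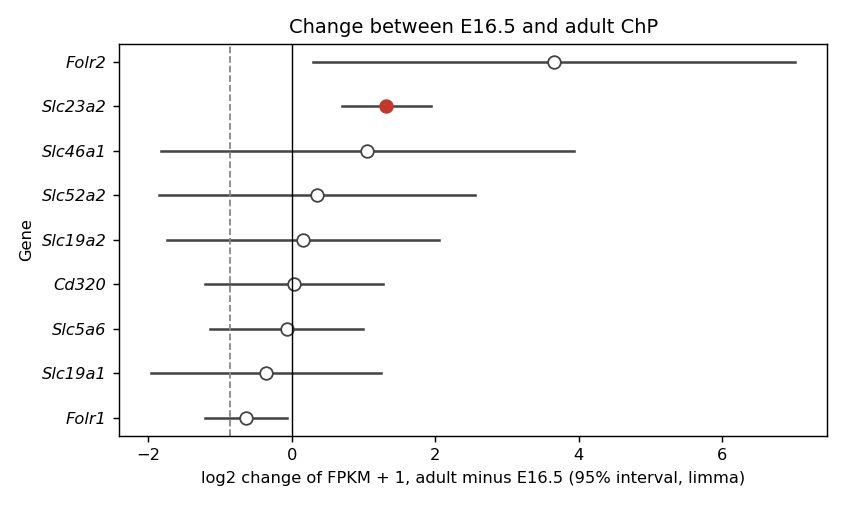
The plot shows the log2 change of FPKM + 1, adult minus E16.5, of the 9 genes tested, with the 95% interval from limma. The filled point is the gene that passed the test, Slc23a2, and the dashed line is the median of all genes tested, -0.86. The intervals of 6 genes include 0, while those of Folr2 and Slc23a2 lie above it and that of Folr1 below it.

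Folate receptor alpha, Folr1, a glycolipid-anchored receptor that binds folate with high affinity, was the most abundant of the 10 genes in every sample. The gene lies on chromosome 7 (mm10, 101858331-101870788, minus strand). Its FPKM was 465, 636 and 707 in the adult samples and 1048, 904 and 827 at E16.5. Every adult sample was below every E16.5 sample, as were 31% of all genes tested. The mean was 603 ± 125 FPKM in adult against 926 ± 113 FPKM at E16.5 (SD, n = 3 each). The log2 change was -0.63 (SE 0.25, 95% interval -1.21 to -0.06), with an adjusted p of 0.131 by limma, so it did not pass. Relative to the median of all genes Folr1 was 0.22 higher in adult. Its place among all genes by FPKM was 40, 54 and 33 in the adult libraries and 35, 40 and 33 at E16.5, so it stayed among the most abundant mRNAs at both ages. With every library scaled to the same sum of FPKM, Folr1 was called higher at E16.5 (log2 change -1.46, adjusted p = 0.0162 by limma), a scaling under which the median of all genes was also -1.46.

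Folate receptor beta, Folr2, is the neighbour of Folr1 on chromosome 7 (101839988-101857194, minus strand) and is known from macrophages and placenta. It was at 21.6, 0.129 and 78.1 FPKM in the adult samples and listed at 0 in all 3 E16.5 samples. The adult samples thus spread from about 1 read to about 207 reads, as estimated for its transcript of 1067 bases. At that length 3 reads would have given 0.219 to 0.276 FPKM in the E16.5 libraries. The adult replicates 1 and 3 were high and adult replicate 2 was close to 0, and all 3 were above E16.5, as was the case for 7.39% of all genes tested. The adjusted p was 0.134 by limma. Without adult replicate 2 the gene was called higher in adult (adjusted p = 0.0109 by limma), so 1 library decided the call. That fit set the 2 high adult values against 3 values listed at 0, so it adds no support for a rise. No fold is given against a group at 0. Of the 50-base stretches of its transcripts, 46.7% are also found, on the opposite strand, in the antisense gene Gm10602, and whether strand was used in the authors' quantification is not stated, so reads of the 2 genes may not be told apart. Folr2 shared no stretch with Folr1.

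The 14 macrophage markers summed to 2.31, 6.82 and 3.40 FPKM in the adult samples and to 13.6, 1.84 and 9.27 FPKM at E16.5. The sum was thus highest in adult replicate 2 among the adult samples, where Folr2 was lowest. That library was also the deepest adult one, at 2.90 times the shallowest library, against 1.28 and 1 times for adult replicates 1 and 3. A low marker is more easily missed in adult replicates 1 and 3. The mannose receptor gene Mrc1 was at 2.12 FPKM in adult replicate 2 and listed at 0 in adult replicates 1 and 3. Csf1r, the receptor for the growth factor that macrophages depend on, was at 0.0695, 2.52 and 0.178 FPKM in adult. Other markers had other patterns, with the fractalkine receptor gene Cx3cr1 at 0, 2.19 and 3.22 FPKM and the coagulation factor gene F13a1 at 2.24, 0 and 0 FPKM in adult. In all 3 adult samples 10 of the 14 markers were listed at 0, among them C1qa, Cd163, Lyve1 and Ptprc. Of these 10, 6 were listed at 0 in all 6 samples of both ages, Lyve1 among them. In bulk samples, fewer cells of a type and less RNA per cell cannot be told apart, and the part of macrophages in the Folr2 level was not tested.

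**Figure D3:**
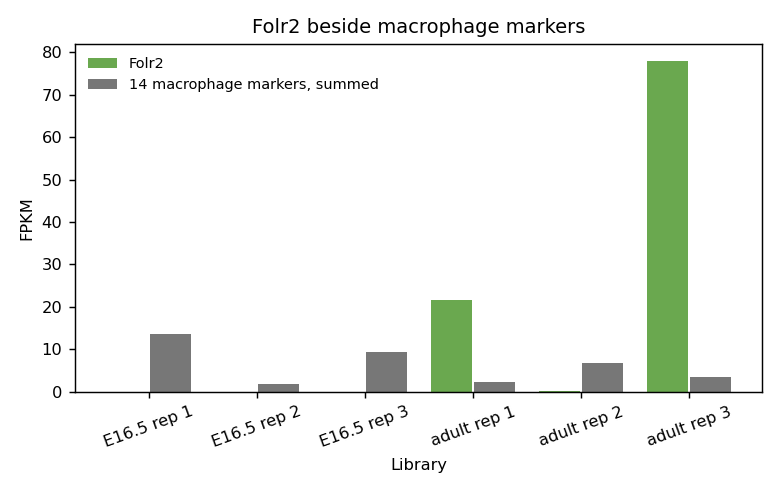
The bars show the FPKM of Folr2 (green) and the summed FPKM of 14 macrophage markers (grey) in each of the 6 libraries. Folr2 is at 21.6 and 78.1 FPKM in the adult replicates 1 and 3, where the markers sum to 2.31 and 3.40 FPKM.

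The membrane carriers of folate were much lower than Folr1 and varied widely between replicates. The proton-coupled transporter Slc46a1 (chromosome 11, 78465697-78472059, plus strand), which works with Folr1 in folate uptake, was at 17.7, 28.2 and 0.184 FPKM in adult and at 5.85, 1.32 and 3.56 FPKM at E16.5. Adult replicates 1 and 2 were above every E16.5 sample, while adult replicate 3, at about 1 read, was below them all. The log2 change was 1.05 (SE 1.24, 95% interval -1.82 to 3.93, adjusted p = 0.577 by limma). Without adult replicate 3 the gene was called higher in adult (log2 change 2.49, adjusted p = 0.0447 by limma).

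The reduced folate carrier Slc19a1 (chromosome 10, 77032241-77061002, plus strand), an anion exchanger, was at 11.1, 20.3 and 3.66 FPKM in adult and at 9.36, 10.5 and 19.99 FPKM at E16.5. The E16.5 range lay inside the adult range. Its log2 change was -0.36 (SE 0.69, 95% interval -1.95 to 1.24, adjusted p = 0.746 by limma), an interval that holds a change of 1 in either direction. The sign turned without adult replicate 3 (0.24).

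Within each library, where scaling between libraries has no part, Folr1 made up less of the folate genes in adult with Folr2 taken at its listed values. This difference rests largely on Folr2, whose zeros at E16.5 are not read as absence. Its share of the summed FPKM of Folr1, Folr2, Slc19a1 and Slc46a1 was 90.2, 92.9 and 89.6% in the adult samples and 98.6, 98.7 and 97.2% at E16.5. The log2 ratio of Folr1 to the summed FPKM of the other 3 genes was 3.32 ± 0.32 in adult and 5.74 ± 0.58 at E16.5 (SD, n = 3 each), a difference of -2.42. The 2 ages did not overlap, and the two-sided exact permutation p was 0.1, the smallest that 3 samples against 3 can give. The difference shrank to -0.80 when Folr2 was left out of the other genes (exact permutation p = 0.5), and the ages then overlapped. The genes that filled the remaining share also differed between adult libraries: Slc19a1 and Slc46a1 together came to 28.8 and 48.5 FPKM in adult replicates 1 and 2 but to 3.84 FPKM in adult replicate 3, where Folr2 was highest.

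The vitamin C transporter Slc23a2 was second to Folr1 at both ages, with no overlap with the gene above or below it in the order of levels. It brings ascorbate into the cell together with sodium, and the gene spans chromosome 2, 132052496-132145108, on the minus strand. Its FPKM was 206, 209 and 146 in the adult samples and 67.5, 77.3 and 75.1 at E16.5. The lowest adult sample was well above the highest E16.5 sample, and 7.39% of all genes tested had every adult sample above every E16.5 sample. The E16.5 mean of 73.3 ± 5.13 FPKM rose to an adult mean of 187 ± 35.2 FPKM (SD, n = 3 each). The log2 change was 1.32 (SE 0.27, 95% interval 0.70 to 1.94), with an adjusted p of 0.0270 by limma. Relative to the median of all genes the change was 2.18, and 1.95 to 2.23 under 3 other scalings of the libraries. None of its 50-base stretches was shared with another gene.

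The call on Slc23a2 was lost under 8 of 17 alternatives. These were every library scaled to the same sum of FPKM (log2 change 0.50, adjusted p = 0.303), no intensity trend (adjusted p = 0.0932), the replicate number as a block (adjusted p = 0.0636), a threshold of 0.01, and the omission of any of 4 libraries, namely adult replicate 1 (0.0579) or E16.5 replicate 1, 2 or 3 (0.0941, 0.0861 and 0.0793), all adjusted p by limma. The change was positive under all 17 alternatives, from 0.50 to 1.79.

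The other known ascorbate carrier of the family, Slc23a1, was listed at 0 in all adult samples and was at 0.539, 0.855 and 0 FPKM at E16.5. Within each library Folr1 exceeded Slc23a2 by 2.26, 3.05 and 4.84 times in adult and by 15.5, 11.7 and 11.01 times at E16.5. These ratios did not overlap between the ages, and the log2 ratio was lower in adult by a difference of -1.97 (two-sided exact permutation p = 0.1, the smallest possible). By place among all genes, Slc23a2 stood at 132, 197 and 303 in the adult libraries and at 1155, 1010 and 965 at E16.5. The summed FPKM of the 10 genes was 757, 951 and 963 in adult and 1173, 1023 and 965 at E16.5, of which Slc23a2 made up 15.2 to 27.2% in adult and 5.76 to 7.78% at E16.5.

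**Figure D4:**
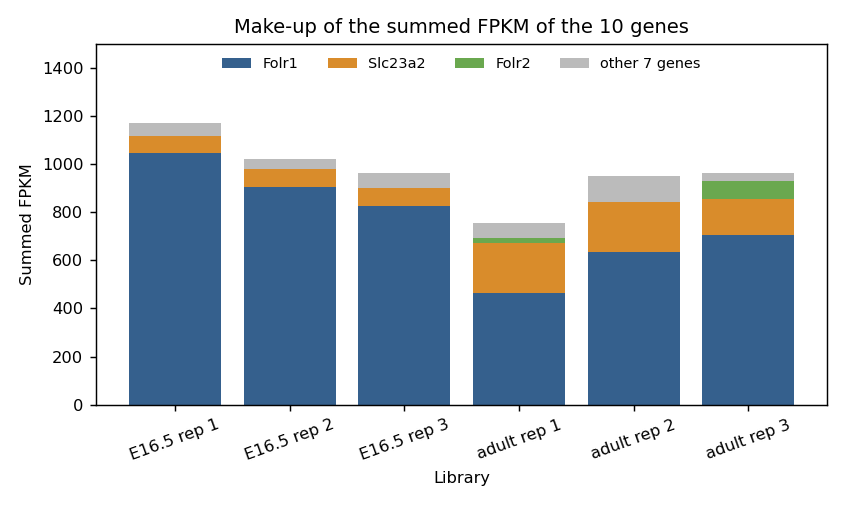
Stacked bars give the summed FPKM of the 10 genes in each library, split into Folr1, Slc23a2, Folr2 and the other 7 genes. Slc23a2 takes 15.2 to 27.2% of the sum in the adult libraries and 5.76 to 7.78% at E16.5, and Folr1 61.5 to 73.5% and 85.7 to 89.4%.

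Among 11600 other genes tested, those with the pattern over the 6 samples closest to that of Slc23a2 were Zmpste24, Gaa and Man2a2. The root mean square difference of log2(FPKM + 1), each gene centred on its own mean, was 0.104, 0.113 and 0.137. Zmpste24 encodes a zinc metalloprotease that processes prelamin A, Gaa the lysosomal acid alpha-glucosidase and Man2a2 a Golgi mannosidase. Gaa, the most abundant of the 3, was at 125, 146 and 83.4 FPKM in adult and at 48.1, 48.2 and 46.7 FPKM at E16.5.

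The thiamine transporters were low. Slc19a2 (chromosome 1, 164249046-164265385, plus strand), the high-affinity thiamine carrier, was at 3.14, 12.9 and 4.71 FPKM in adult and at 13.9, 2.97 and 2.98 FPKM at E16.5. Each age had 1 high sample and 2 low ones, and the log2 change was 0.16 (SE 0.81, 95% interval -1.74 to 2.06, adjusted p = 0.905 by limma). Slc19a3 (chromosome 1, 83012523-83038448, minus strand), the other thiamine carrier, was listed at 0 in 5 of the 6 samples. The exception was E16.5 replicate 1 at 0.172 FPKM, about 6 reads for the transcript of 2974 bases. At that length 3 reads would have given 0.122 to 0.354 FPKM in the adult libraries, so a level like that of E16.5 replicate 1 was not detectable in all of them.

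The multivitamin transporter Slc5a6 (chromosome 5, 31036036-31048924, minus strand), which carries biotin, pantothenate and lipoate with sodium, was the most abundant of the remaining genes. Its FPKM was 15.9, 27.8 and 12.9 in adult and 19.1, 14.9 and 23.3 at E16.5. The ages overlapped, and the log2 change was -0.07 (SE 0.46, 95% interval -1.13 to 1.001, adjusted p = 0.931 by limma). Other genes hold 21.4% of its 50-base stretches, among them Atraid on the opposite strand with overlapping exons, so its level is less certain. The sign turned under median-ratio scaling (0.26) and quantile normalization (0.49).

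Slc52a2 (chromosome 15, 76538832-76544608, plus strand) encodes a riboflavin transporter. It was at 10.01, 2.66 and 0 FPKM in adult and at 1.53, 0.961 and 2.85 FPKM at E16.5. The adult samples held both the highest value and the lowest, and the log2 change was 0.36 (SE 0.94, 95% interval -1.84 to 2.56, adjusted p = 0.816 by limma). With a smaller pseudocount of 0.1 the sign turned (-0.29).

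Cd320 (chromosome 17, 33843091-33849774, plus strand) is the receptor through which cells take up cobalamin bound to transcobalamin. It was at 6.61, 14.7 and 9.60 FPKM in adult and at 7.39, 11.2 and 10.6 FPKM at E16.5. The E16.5 range lay inside the adult range. The log2 change was 0.03 (SE 0.53, 95% interval -1.21 to 1.27, adjusted p = 0.973 by limma).

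In the order of mean level, Slc5a6, Slc19a1, Cd320 and Slc19a2 came in this sequence at both ages. In adult, neighbours from Folr2, next after Slc23a2, down to Slc52a2 overlapped in their ranges over samples, with Slc46a1 between Slc5a6 and Slc19a1. At E16.5, neighbours from Slc5a6 down to Slc52a2 overlapped likewise, and Slc19a3 and Folr2 came last.

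The ligand of Cd320 differed from its receptor. Transcobalamin, Tcn2, the secreted protein that carries cobalamin into tissues, was at 180, 217 and 196 FPKM in adult and at 44.8, 40.5 and 58.3 FPKM at E16.5. It rose 4.13-fold in the mean, with a log2 change of 2.03 (SE 0.27, adjusted p = 0.00795 by limma). For Tcn2 every adult sample was above every E16.5 sample, as for 7.39% of all genes tested. Its ratio to Cd320 within a library was 27.2, 14.8 and 20.4 in adult against 6.07, 3.61 and 5.51 at E16.5. The log2 ratio differed by 2.03 (two-sided exact permutation p = 0.1, the smallest possible). The call on Tcn2 was lost when E16.5 replicate 1 or 2 was left out (adjusted p = 0.0552 and 0.0574 by limma).

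Of 72 other genes of these vitamin pathways, 58 were tested, of which 4 were called in the adult direction and 1 in the other. The shares of all genes tested were 2.12% and 8.83%. The median log2 change of the 58 genes was -0.40, against -0.86 for all genes tested. Among other vitamin carriers and binding proteins, 2 of 11 tested were called, both higher in adult, Tcn2 and Abcc4. Abcc4, an exporter of organic anions that include folates, was at 30.8, 51.1 and 29.8 FPKM in adult and at 6.33, 6.79 and 8.54 FPKM at E16.5 (log2 change 2.18, SE 0.44, adjusted p = 0.0260 by limma). Slc2a1, the glucose transporter that also carries oxidised vitamin C and was the second most abundant of this list, was at 24.4 ± 10.5 FPKM in adult against 46.5 ± 6.91 FPKM at E16.5 (SD, n = 3 each, adjusted p = 0.149 by limma). Relative to the median of all genes its log2 change was -0.11.

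Of 18 folate one-carbon enzymes tested with limma, 0 were called in either direction, beside 2.12% (adult) and 8.83% (E16.5) of all genes tested. At an unadjusted p under 0.05 there were 0 upward and 2 downward, beside shares of 5.34% and 25.9% of all genes tested. Their median log2 change was -0.83. The 2 most abundant were Mthfd1, which interconverts folate forms in the cytosol, and Ggh, which trims the polyglutamate tail of folate. Mthfd1 was at 60.7 ± 26.9 FPKM in adult against 49.4 ± 8.09 FPKM at E16.5 (adjusted p = 0.718), and Ggh at 41.5 ± 34.2 and 29.98 ± 12.8 FPKM (adjusted p = 0.863, SD, n = 3 each, limma). Ggh was at 2.33 FPKM in adult replicate 3, the library in which Slc19a1 and Slc46a1 were also lowest.

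The cobalamin list had 3 of 10 genes called, 2 in the adult direction and 1 in the other, beside 2.12% and 8.83% of all genes tested. Besides Tcn2, the called genes were the enzymes of 2 consecutive steps in the breakdown of propionate, which moved in opposite directions. Methylmalonyl-CoA mutase (Mut), which uses cobalamin as its cofactor, was at 23.0, 32.9 and 40.7 FPKM in adult and at 7.52, 10.04 and 7.16 FPKM at E16.5 (log2 change 1.82, SE 0.44, adjusted p = 0.0412 by limma). Methylmalonyl-CoA epimerase (Mcee), which acts just before it and uses no cobalamin, was at 299, 140 and 267 FPKM in adult and at 685, 817 and 430 FPKM at E16.5 (log2 change -1.47, SE 0.38, adjusted p = 0.0477 by limma). Neither gene overlapped between the ages. Every adult sample was above every E16.5 sample for Mut and below for Mcee, as for 7.39% and 31% of all genes tested. Relative to the median of all genes the log2 change was 2.68 for Mut and -0.62 for Mcee. The call on Mcee was lost under 13 of 17 alternatives and that on Mut under 9, both of them when any 1 sample other than adult replicate 3 was left out. The Mcee call was also lost under median-ratio scaling and quantile normalization (adjusted p = 0.122 and 0.206 by limma).

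Biotin enzymes had 1 of 9 called, in the adult direction, as were 2.12% of all genes tested. The called gene was Acacb, a carboxylase that makes malonyl-CoA at the mitochondrial surface. It was at 28.3, 23.1 and 23.9 FPKM in adult and at 4.44, 3.96 and 6.34 FPKM at E16.5 (log2 change 2.16, SE 0.47, adjusted p = 0.0318 by limma). The most abundant biotin enzymes, the carboxylase subunits Mccc1 and Pccb, had log2 changes of 0.89 and -0.37 and did not pass (adjusted p = 0.143 and 0.675 by limma). The calls on Abcc4 and Acacb were lost without any 1 of the 3 E16.5 samples, and that on Acacb also without adult replicate 1. Both were also lost at the same sum of FPKM (adjusted p = 0.0761 for each by limma), with the replicate number as a block (0.0658 and 0.0807) and at a threshold of 0.01.

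Of 7 genes for handling thiamine, riboflavin and pyridoxine and 7 for making coenzyme A from pantothenate, 0 were called by limma. The shares called among all genes tested were 2.12% for adult and 8.83% for E16.5. At an unadjusted p under 0.05, 2 of the first list passed upward and 3 downward, and 0 and 1 of the second, beside 5.34% and 25.9% of all genes tested. The riboflavin kinase Rfk was at 49.9 ± 9.42 FPKM in adult against 27.6 ± 1.45 FPKM at E16.5, and the pyridoxal kinase Pdxk at 38.7 ± 1.78 and 17.7 ± 4.48 FPKM (SD, n = 3 each). Every adult sample was above every E16.5 sample for both genes, as for 7.39% of all genes tested. Their adjusted p was 0.138 and 0.0900 by limma, so neither passed. Of the 50-base stretches of Pdxk, 41.8% are found in other genes, most of them on the opposite strand in the antisense gene 4921516A02Rik, so its level is less certain. Coasy, which makes coenzyme A, was at 10.6 ± 4.97 FPKM in adult against 24.6 ± 4.995 FPKM at E16.5 (SD, n = 3 each, adjusted p = 0.153 by limma). Relative to the median of all genes its log2 change was -0.37. Pank3, a pantothenate kinase, had a log2 change of 0.05 (adjusted p = 0.947 by limma).

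**Figure D5:**
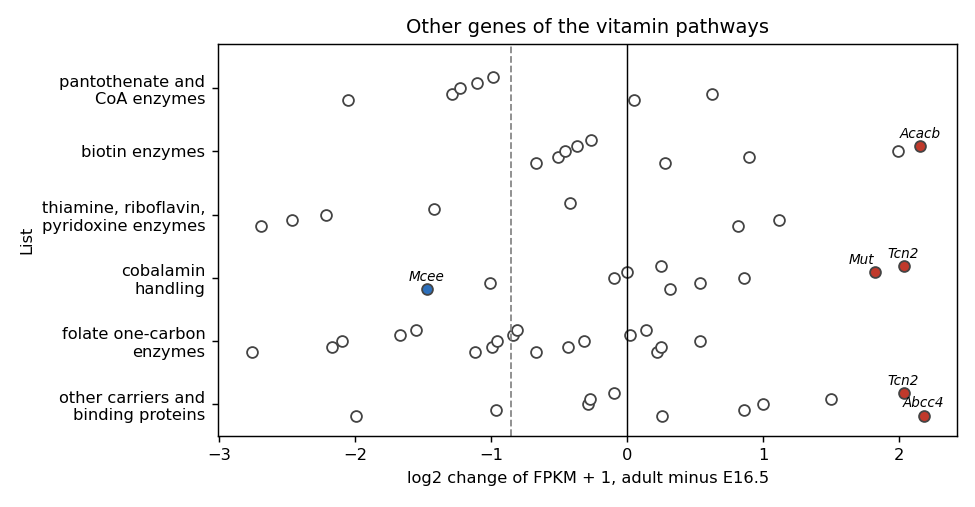
Each point is the log2 change of FPKM + 1, adult minus E16.5, of a tested gene in 6 lists of vitamin pathway genes, and genes in more than 1 list, such as Tcn2, are drawn in each. Filled points passed the test, red higher in adult and blue higher at E16.5, and the dashed line is the median of all genes tested, -0.86.

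Summed markers of some other cell types also differed between the ages, while those of endothelium and pericytes overlapped. Summed markers of red blood cells were at 0 to 6.49 FPKM in adult and at 54.1 to 324 FPKM at E16.5, those of mesenchyme at 13.3 to 21.9 and 57.7 to 69.3 FPKM, and those of neurons and progenitors at 0.145 to 9.88 and 26.7 to 109 FPKM. In this last sum Sox2 alone held 26.3, 25.3 and 26.4 FPKM in E16.5 replicates 1, 2 and 3. The neuronal genes Tubb3 and Stmn2 were at 36.2 and 25.3 FPKM in E16.5 replicate 1, but at 0 to 0.623 FPKM in replicates 2 and 3. Summed endothelial markers ranged from 0.489 to 19.0 FPKM in adult and from 12.7 to 40.8 FPKM at E16.5, and pericyte markers from 5.13 to 24.7 and from 5.36 to 8.19 FPKM, both highest among adult samples in replicate 2. Cell cycle genes summed to 4.83 to 45.8 FPKM in adult against 53.8 to 96.9 FPKM at E16.5. The part of these cells in the levels given above was not tested.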

How the data were processed

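TRAP mRNA of 3 adult and 3 E16.5 ChP samples was measured. Libraries were made with a SMARTer Pico kit with ribodepletion, as the labels state. The authors aligned single-end reads of 50 bases to mm10 with STAR (version 2.4.0 in the submitters' processing notes) and deposited 1 table of FPKM per gene, calculated with Cuffquant of Cufflinks. The study took both sexes and names an mm10 gene annotation for its read counts. The annotation given to Cuffquant, the use of strand, the sexes in each pool and any batches are not given in the sources used here.

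Samples were grouped by the age in their labels. The test was limma 3.58.1 (R 4.3.3) with an intensity trend on log2(FPKM + 1), a scale that understates changes of low genes. It took in genes whose FPKM averaged above 1 across all 6 samples, and age was the only term. P was two-sided, adjusted by the Benjamini-Hochberg method over all genes tested and read at 0.05. The study's own test used read counts, which were not analysed here. Ratios within a library were compared by exact permutation tests (scipy 1.17.1). The pipeline was tested on simulated data.

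FPKM carry no depth. It was estimated from the spacing of low values, which fall on multiples of a single read, in 2520 coding genes for which 1 transcript is annotated, at the transcript length minus 200 bases. It rests on 43 to 65 low values per library, of which 64.6 to 81.3% lay within 0.1 of a whole read, so read numbers are approximate. One read per kilobase was worth 0.113 to 0.327 FPKM in adult and 0.0633 to 0.0798 FPKM at E16.5. Reads carry no molecular identifiers, and these limits cover counting error only.

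Coordinates are from GENCODE vM21 (mm10), in which Mut is named by a newer symbol. Named were the 10 genes, up to 4 called genes per pathway list and direction, the 2 most abundant genes of each list, defining cell type markers and the 3 genes closest in pattern to a called gene. Slc23a1, Gm10602, Atraid, 4921516A02Rik and further macrophage, epithelial and endothelial markers were named after their values were seen. The 10 genes and all lists were chosen with earlier results of these data known. Alternatives covered the pseudocount, the filter, the scaling, the trend, sample weights, the threshold, a replicate block and each sample left out.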

Additional observations from a re-analysis of the deposited data

How the results depend on the processing

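Folr2, listed at 0 in every E16.5 sample, could only come out higher in adult. The direction of Slc23a2, Folr1 and Slc46a1, and of the 5 other called pathway genes, was the same under every alternative run. For Folr1 this did not hold relative to the median of all genes. On that measure its change was 0.22 in the main test and 0.28 under median-ratio scaling. It was -5.18e-05 at the same sum and 0.01 under quantile normalization. The filter was applied anew where samples were left out or rescaled, a choice made after first results were seen. Of the 10 genes, 1 was called higher in adult, and 0 with libraries scaled to the same sum of FPKM (1 higher at E16.5, Folr1), without a trend, at a threshold of 0.01 or with the replicate block. Leaving out 1 sample gave 0 to 2. Genes called higher in adult numbered 119 at the same sum, 466 under quantile normalization, 158 without a trend and 56 at 0.01, and 27 to 357 without 1 sample. Genes called higher at E16.5 numbered 451 among genes above 0 in every sample, 656 under median-ratio scaling, 3200 at the same sum, 449 under quantile normalization and 132 at 0.01, and 16 to 1704 without 1 sample. Pathway genes called higher in adult numbered 1 at the same sum and at 0.01, and 0 to 4 without 1 sample. Those higher at E16.5 numbered 9 at the same sum, 0 under median-ratio scaling, quantile normalization and the stricter threshold, and 0 to 4 without 1 sample. The median change of the 9 genes was -0.51 at the same sum, 1.03 under quantile normalization and -0.24 to 0.32 without 1 sample.

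Replicate numbers are shared by the ages in the labels, but nothing states that they pair samples, and deviations of same-numbered samples were correlated at 0.000895, 0.0439 and 0.0150 over genes. With the replicate block, 112 genes were called for adult and 452 for E16.5, with 0 of the 10 genes and 1 and 0 pathway genes in the 2 directions. Slc23a2 then had an adjusted p of 0.0636 by limma.

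Signs turned for genes whose change did not pass. Slc52a2 came to -0.29 and -1.33 at pseudocounts of 0.1 and 0.01 and -0.14 at the same sum, and ranged from -0.48 (without adult replicate 1) to 1.25 when 1 sample was left out. Slc5a6 came to 0.26 under median-ratio scaling, 0.49 under quantile normalization, 0.079 with array weights, and -0.37 to 0.16 when 1 sample was left out, above 0 without adult replicate 1 or 3 or E16.5 replicate 3. Slc19a1 came to 0.60 under quantile normalization and -0.86 to 0.24 when 1 sample was left out (0.24 without adult replicate 3). Slc19a2 came to -0.51 at the same sum and -0.35 to 0.80 when 1 sample was left out, below 0 without adult replicate 2 or E16.5 replicate 2 or 3. Cd320 came to -0.72 at the same sum and -0.24 to 0.28 when 1 sample was left out, below 0 without adult replicate 2 or E16.5 replicate 1. Ggh came to 6.45e-05 under median-ratio scaling, 0.51 under quantile normalization, 0.43 with array weights and -1.07 to 1.09 when 1 sample was left out, above 0 without adult replicate 3. Pccb came to 0.012 under quantile normalization. Mthfd1 came to -0.59 at the same sum and -0.11 (without adult replicate 2) to 0.44 when 1 sample was left out. Pank3 came to -0.73 at the same sum and -0.14 to 0.29 when 1 sample was left out, below 0 without adult replicate 1 or 2 or E16.5 replicate 1. The cause was not tested. The shallower adult libraries limit genes of a few FPKM most.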
